A study of Rattus norvegicus with 12 samples.

Results

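Messenger RNA levels of 8 genes that mark microglia, the resident macrophages of the brain, were measured in rat ventral dentate gyrus. The genes were Aif1, Cx3cr1, P2ry12, Csf1r, Itgam, Trem2, Tyrobp and Cd68, chosen by symbol from the 17172 genes of the count tables. All 8 were listed in each of the 12 libraries, and all 8 passed the filter on low counts that left 11750 genes for testing.

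The libraries came from male rats of 2 lines of Sprague-Dawley origin, the Flinders Resistant Line (FRL) and the Flinders Sensitive Line (FSL), which is widely used as a model of depression. FRL rats on tap water as vehicle, FSL rats on tap water, and FSL rats given L-acetyl-carnitine (LAC) and recorded as non-responders or as responders made up 4 groups of 3 libraries. LAC, an acetylated form of carnitine, was given in the drinking water at 0.3% weight per volume for 7 days, about 210 mg per kg body weight a day. No FRL group on LAC was included, the vehicle FSL rats were not divided by response, and the sources used here do not give the age of the rats, how many rats stand behind a library or by what measure response was judged. About 130 mg of tissue was lysed per sample, so the RNA came from all cells of the dissected piece. The labels call the libraries biological replicates. Levels below are CPM, counts scaled with TMM factors to 1 M (M for mega) counts in genes, from libraries of 5.91 to 8.14 M such counts, and mean ± SD (n = 3) is over the libraries of a group.

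Microglia depend throughout life on signalling by the receptor Csf1r, whose ligands are Csf1 and Il34. They sense neurons through Cx3cr1, the receptor of the neuronal chemokine Cx3cl1, and sense nucleotides released from cells through P2ry12. The lipid sensor Trem2 signals through its adaptor Tyrobp, and the transcription factor PU.1, encoded by Spi1, drives much of the genes' expression by binding purine-rich sites known as PU boxes. In bulk tissue, fewer microglia and less of a transcript per microglial cell cannot be told apart.

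The stretches below are shown because the letters that PU.1 recognises could be looked for next to the start of the members' transcripts. Promoter sequences from RefSeq (build GRCr8) were found for 5 of the 8 members, namely Itgam, Cx3cr1, Trem2, Cd68 and Csf1r. The PU box letters GAGGAA, or TTCCTC on the other strand, were searched on both strands of the 250 bases before each start. Each line gives 30 bases, 5′ to 3′ on the strand of the gene, with the matching letters in capitals.
Itgam, chr1:192089429-192089458, plus strand: tgtgatgtcccaGAGGAAggctacacaggg
Itgam, chr1:192089541-192089570, plus strand: ggctttagtggcTTCCTCaaagtgtttgtg
Csf1r, chr18:56834138-56834167, plus strand: agattctgcctcTTCCTCtggtgtgtgtgt
Csf1r, chr18:56834272-56834301, plus strand: gacaagaacgtgTTCCTCtgttcccatccc
Trem2, chr9:20151791-20151820, minus strand: agcctcctttccTTCCTCcctcgtgccctt
Cd68, chr10:54882451-54882480, minus strand: aagagttttcatTTCCTCttccaagagaag
The letters were present before 4 of the 5 starts, and in 23.3% of all 33469 promoters of that length. The matches of Cd68 and Trem2 lay 27 and 29 bases before the start, those of Itgam 151 and 39 bases, and those of Csf1r 229 and 95 bases. The Cx3cr1 window held no match, and TATAAA, the letters of a TATA box, were in none of the 5 windows and in 12.9% of all. A match is a run of letters, and binding was not measured. Spi1 itself was at 1.89 to 6.01 CPM, with the highest level in FSL vehicle 3.

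The tissue contained microglial RNA in every library. None of the 8 members was at 0 in any library, and among 24 further microglia genes Ctss, a lysosomal protease, was at 143 to 199 CPM. Genes of other blood leukocytes were near the floor, since 12 of 14 listed genes were found and together reached 4.65 to 14.8 CPM, with 2 of the 12 passing the filter. A count of 3 was worth 0.367 to 0.511 CPM. Macrophages of the brain's borders carry Mrc1, Cd163 and F13a1 and share several members with microglia, among them Csf1r, Aif1, Itgam and Cd68. The summed level of 10 border macrophage genes was 35.2 to 38.6 CPM in FRL vehicle libraries, whereas the FSL vehicle libraries had 33.1, 103 and 267 CPM, the non-responders 31.9, 94.7 and 118 CPM and the responders 54.2, 27.1 and 28.3 CPM. FSL vehicle 3 stood apart in these genes, and its sum of meningeal fibroblast genes, 2915 CPM, was also above the 96.7 to 896 CPM of the other 11 libraries. For choroid plexus genes the libraries that stood apart were non-responder 1 (6517 CPM), FSL vehicle 1 (3587 CPM) and FSL vehicle 3 (419 CPM), while the sum over these genes was 11.3 to 72.2 CPM in the other 9. The main values that FSL vehicle 3 moves are also given without it, a setting chosen for the gene lists after the data were seen.

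Of the receptors, Csf1r had the largest counts, 592 to 1224 per library. It was at 108, 105 and 101 CPM in FRL vehicle, 122, 125 and 171 CPM in vehicle FSL rats, 107, 129 and 137 CPM in non-responders, and 134, 107 and 108 CPM in responders. All 3 FSL vehicle libraries lay above all 3 FRL vehicle libraries, while both LAC groups reached down to the FRL range. FSL vehicle 3 had the highest level of the 12, and the FRL libraries were close together. The group levels were 105 ± 3.57 CPM in FRL vehicle, 140 ± 27.4 CPM in vehicle FSL rats, 124 ± 15.3 CPM in non-responders and 116 ± 15.4 CPM in responders.

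P2ry12 is the purinergic receptor by which microglial processes find injured cells, and it was the member with the smallest unadjusted p when all FSL groups were set against FRL vehicle. Its levels were 17.6, 15.5 and 12.3 CPM in FRL vehicle, 26.6, 21.8 and 16.5 CPM in vehicle FSL rats, 22.4, 22.01 and 27.97 CPM in non-responders, and 25.1, 17.7 and 23.3 CPM in responders. Of the 9 FSL libraries, FSL vehicle 3 was the exception that fell within the FRL range, and responder 2 lay just above it. Group levels were 15.1 ± 2.70 CPM in FRL vehicle against 21.6 ± 5.05, 24.1 ± 3.33 and 22.0 ± 3.86 CPM in FSL vehicle, non-responders and responders. P2ry12 lies within Med12l in the RefSeq annotation, and the counts do not say how reads in the overlap were assigned. Med12l was at 32.4 to 54.3 CPM with a log2 difference of 0.00029 between FSL and FRL vehicle.

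Cx3cr1 was the least variable member. It was at 21.5, 24.5 and 21.1 CPM in FRL vehicle, 30.3, 24.6 and 20.6 CPM in vehicle FSL rats, 22.7, 24.8 and 22.7 CPM in non-responders, and 26.7, 23.9 and 21.2 CPM in responders. The FSL vehicle group held both the highest and the lowest of the 12 libraries, and all groups overlapped. A long noncoding RNA overlaps Cx3cr1 on the other strand, and which strand setting the counting used is not stated in the labels.

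Itgam, the alpha chain of complement receptor 3, was at 20.4, 16.9 and 13.96 CPM in FRL vehicle and 15.9, 20.4 and 22.5 CPM in FSL vehicle. It was at 15.7, 17.7 and 15.7 CPM in non-responders and 20.4, 17.6 and 16.3 CPM in responders. The FRL libraries alone spanned most of the range of the 12, and no pair of groups was separated.

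The receptor Trem2 was at 8.36, 10.1 and 7.49 CPM in FRL vehicle, 7.46, 10.2 and 8.67 CPM in vehicle FSL rats, 10.02, 10.8 and 10.2 CPM in non-responders, and 10.2, 6.69 and 5.80 CPM in responders. Non-responders lay close together, with 1 library of every other group at their level, and 2 of the responder libraries were the lowest of all. Tyrobp, its adaptor, was at 8.62, 6.53 and 8.17 CPM in FRL vehicle, 7.14, 7.48 and 9.37 CPM in vehicle FSL rats, 6.86, 7.77 and 7.34 CPM in non-responders, and 7.71, 6.94 and 4.32 CPM in responders. The Tyrobp level of responder 3 was the lowest of the 12, and every group overlapped every other.

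Aif1, which encodes the calcium-binding protein Iba1, was at 13.8, 14.5 and 15.5 CPM in FRL vehicle, 15.4, 18.4 and 20.3 CPM in vehicle FSL rats, 12, 13.7 and 18.8 CPM in non-responders, and 19.1, 14.7 and 14.03 CPM in responders. FSL vehicle 1 fell just inside the FRL range, and the non-responders held libraries under that range and one above it. Cd68, a lysosomal membrane protein of phagocytes, was at 1.29, 1.20 and 1.02 CPM in FRL vehicle, 1.46, 1.42 and 4.61 CPM in vehicle FSL rats, 1.19, 2.64 and 2.68 CPM in non-responders, and 1.22, 0.372 and 0.809 CPM in responders. These Cd68 levels stood on 3 to 33 counts a library, and the exact 95% Poisson intervals, which cover counting error only, were 0.619 to 8.77 for the 3 counts of responder 2 and 22.7 to 46.3 for the 33 counts of FSL vehicle 3. Cd68 passed the filter through FSL vehicle and non-responder libraries, since 5 libraries reached the 1.32 CPM that had to be met in 3 and none of them was an FRL or responder library.

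**Figure D1:**
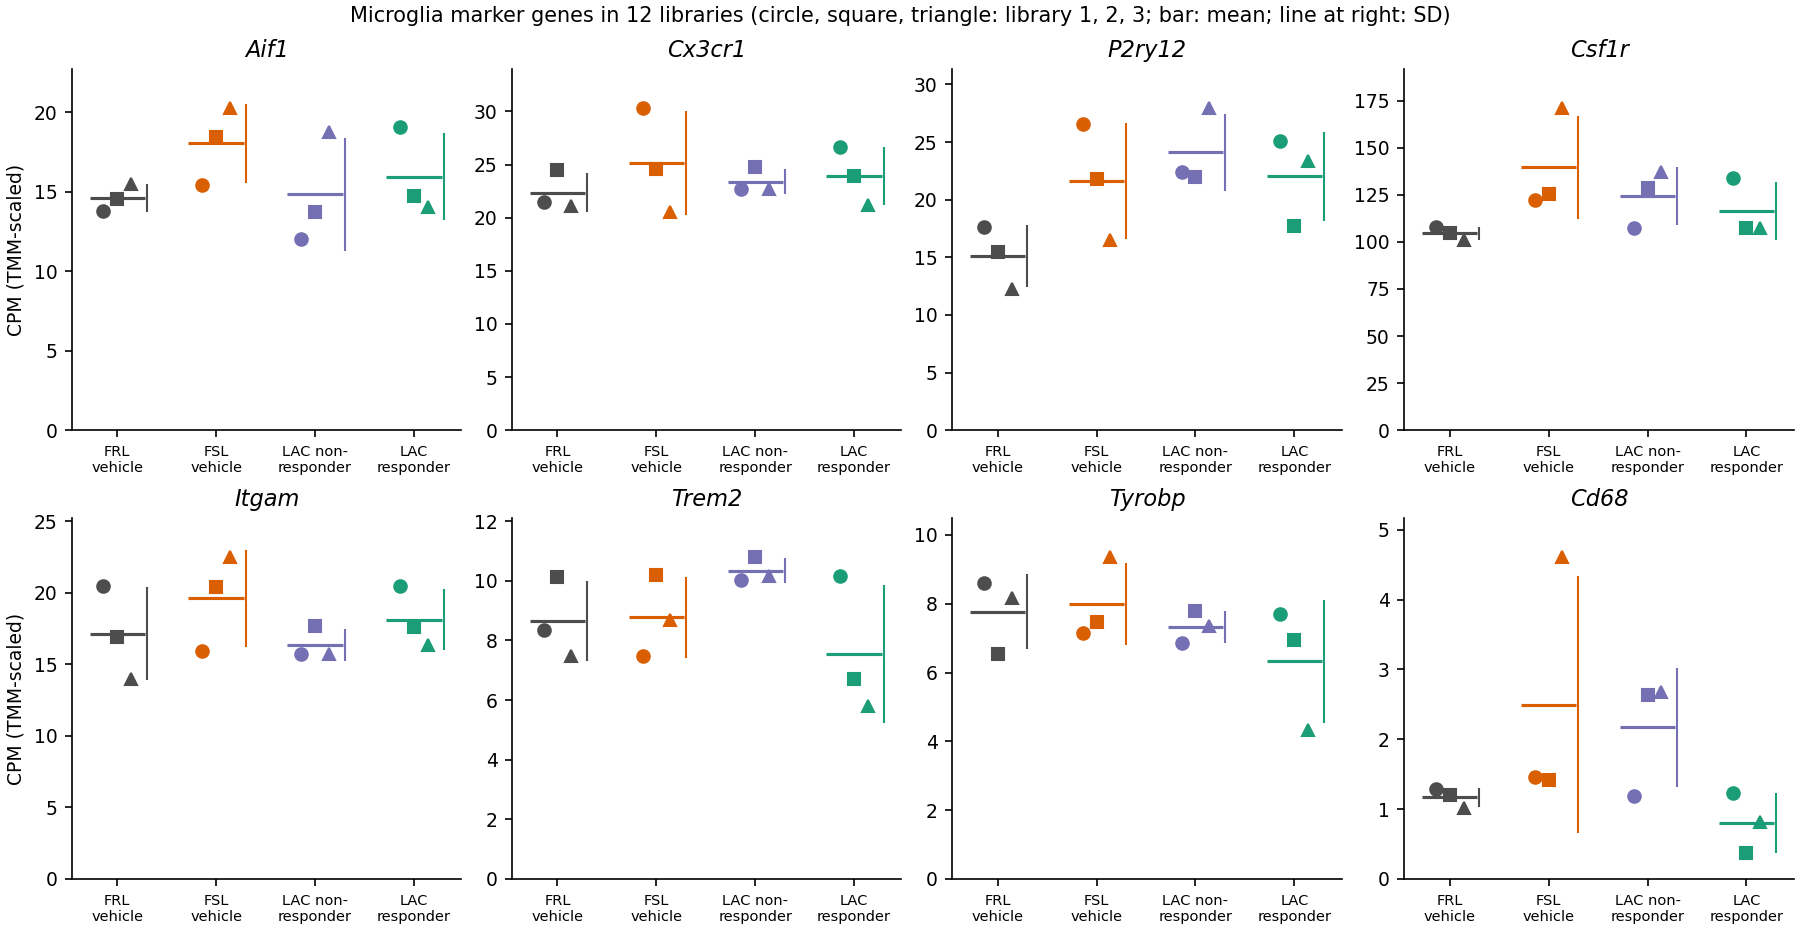
CPM of each of the 8 members on linear axes that start at 0, by group. Circles, squares and triangles are libraries 1, 2 and 3, bars are group means and the line at the right is the SD, and P2ry12 in 8 of 9 FSL libraries lies above the highest FRL library.

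Ordered by group mean, FSL vehicle was highest for Aif1, Cx3cr1, Csf1r, Itgam, Tyrobp and Cd68, and non-responders for P2ry12 and Trem2. FRL vehicle was lowest for Aif1, Cx3cr1, P2ry12 and Csf1r, responders for Trem2, Tyrobp and Cd68, and non-responders for Itgam. The ranges of neighbouring groups in this order overlapped for all 8 members. The step between neighbours was larger than the larger of their 2 SDs for 3 members, at 6.52 CPM for P2ry12 from FRL to FSL vehicle (SD 5.05), 1.56 CPM for Trem2 from FSL vehicle to non-responders (SD 1.36) and 0.9997 CPM for Cd68 from FRL vehicle to non-responders (SD 0.851).

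Between libraries the members spread more than counting alone would give. The coefficient of variation over the 12 libraries was 11.8% for Cx3cr1, 16.5% for Csf1r, 23.2% for P2ry12 and 68.9% for Cd68, against 7.58%, 3.35%, 8.09% and 28.8% expected from Poisson counting. Aif1, Itgam, Trem2 and Tyrobp lay between 14.5% and 18.7%, with 8.72% to 13.6% expected from counting. Counting error thus made up most of the spread for Tyrobp, little of it for Csf1r.

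The first question was whether the FSL line differs from the FRL line on vehicle. None of the 8 members passed an adjusted p of 0.05 in edgeR's quasi-likelihood test with Benjamini-Hochberg adjustment, and neither did any in DESeq2 or limma-voom. In that edgeR comparison 0.0681% of the 11750 genes passed. All 8 members had a positive log2 fold change, against 48.4% of genes tested, with a median of 0.25 against -0.0083 over all genes tested. The 3 with the largest differences were Cd68 at 1.08 ± 0.56 (SE), P2ry12 at 0.51 ± 0.20 and Csf1r at 0.42 ± 0.14, with edgeR adjusted p of 0.413, 0.301 and 0.268. Unadjusted p was under 0.05 for P2ry12 (0.0289) and Csf1r (0.0134), both higher, where 9.35% of all genes were under 0.05 and higher and 13.9% in either direction. Groups did not overlap for Csf1r and Cd68, both higher in FSL, which 7.56% of all genes also showed, and 13.8% in either direction. Cd68 was admitted to the test through libraries where it is high, none of them FRL, so its separation is a description and no support. Trem2 at 0.02 ± 0.22 and Tyrobp at 0.04 ± 0.22 were nearly equal in means, with standard errors that leave differences of either sign possible.

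The size of these differences depended on FSL vehicle 3 for 2 of the 3 genes. Without it, the log2 difference was 0.29 for Cd68 and 0.25 for Csf1r, and 0.67 for P2ry12. Fits that carried the mean log2 level of the border macrophage genes as a covariate gave -0.18 for Cd68, 0.11 for Csf1r and 0.66 for P2ry12. The meningeal covariate, made in the same way, gave -0.17, 0.12 and 0.59. Over all alternatives tried, P2ry12 lay between 0.34 and 0.67, and no member passed. In the same comparison the median was 2.02 over 8 border macrophage genes, 2.49 over 10 meningeal genes and 5.43 over 9 choroid plexus genes, all positive. The 10 listed choroid plexus genes summed to 14.5 to 27.0 CPM in FRL vehicle, and to 3587, 41.9 and 419 CPM in FSL vehicle 1, 2 and 3. Libraries where they are high may have admitted them to the test, so their signs are a description and no support. Of 12 endothelial and pericyte genes 11 were positive, against 48.4% of all genes, with a median of 0.65, or 0.31 without FSL vehicle 3. The median over the 8 members was 0.235 without FSL vehicle 3, with 7 of 8 positive, -0.015 with the border macrophage covariate and -0.033 with the meningeal one.

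**Figure D2:**
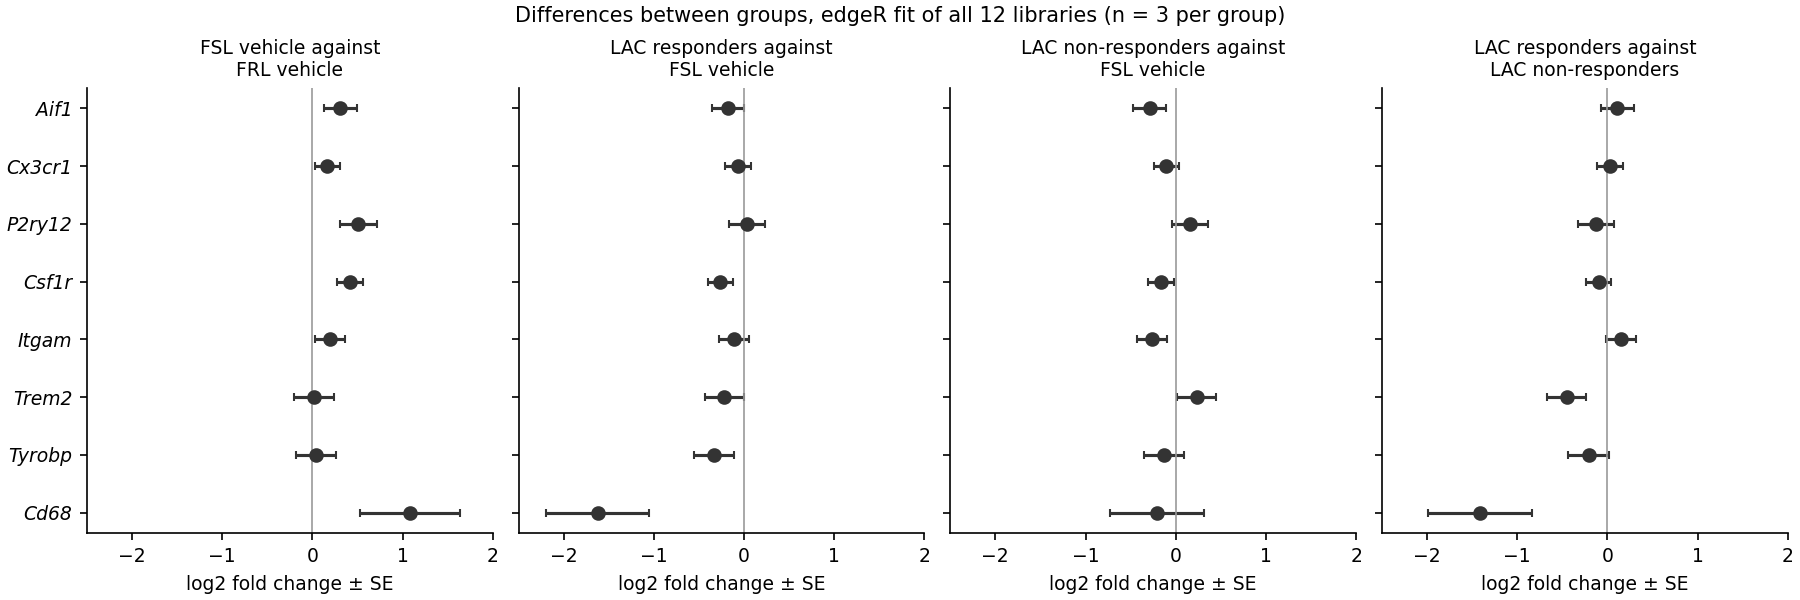
Log2 fold change (points) ± SE (bars) of the 8 members in 4 comparisons, 1 panel each, with 0 marked as a line. The differences of FSL against FRL vehicle are all positive, from 0.02 for Trem2 to 1.08 for Cd68, and those of responders against FSL vehicle are negative for 7 of 8.

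The mean of the 3 FSL groups against FRL vehicle used all 9 FSL libraries, and no member passed in it either, while 0.162% of all genes did. DESeq2 and limma-voom also called none, and unadjusted edgeR p was under 0.05 for 2 members, both higher, where 3.8% of genes were higher and 6.66% differed in either direction. No member's FSL libraries were all on 1 side of the FRL libraries, which 1.96% of genes showed. P2ry12 was at 0.57 ± 0.17 (SE), with an unadjusted p of 0.00621 and an adjusted p of 0.557 by edgeR. Csf1r was at 0.27 ± 0.12, with an unadjusted p of 0.0399 and an edgeR adjusted p of 0.74. Leaving out each library in turn gave 0.45 to 0.70 for P2ry12 and 0.22 to 0.31 for Csf1r. The other 6 members ranged from -0.11 for Tyrobp to 0.47 for Cd68, and 7 of 8 were positive, against 49.9% of genes tested. This comparison shares the FSL and FRL vehicle libraries with the one before.

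The second question was how each class of FSL rats on LAC differed from FSL vehicle. The vehicle rats were not divided by response, so LAC and the sorting by response cannot be told apart here. In responders against FSL vehicle no member passed in edgeR, DESeq2 or limma-voom, and 0% of all genes passed in edgeR. The log2 fold change was negative for 7 members, with a median of -0.20 against 0.012 over all genes, of which 52% were positive. Cd68 was at -1.62 ± 0.57 (SE), with an unadjusted p of 0.0161 and an adjusted p of 0.282 by edgeR, and was the 1 member with an unadjusted p under 0.05, where 9.17% of genes were under it and lower and 13.8% in either direction. All responder libraries were below all FSL vehicle libraries for Cd68, as 6.12% of genes were, and 12.5% in either direction, but no responder library reached the level by which Cd68 was admitted to the test, so this separation too is a description. Without FSL vehicle 3 its difference was -0.83, and Csf1r, at -0.26 ± 0.14 with all libraries, was at -0.094. Tyrobp was at -0.34 ± 0.22, Trem2 at -0.22 ± 0.22, Aif1 at -0.18 ± 0.18, Itgam at -0.11 ± 0.17, Cx3cr1 at -0.07 ± 0.14 and P2ry12 at 0.03 ± 0.20, with edgeR adjusted p of 0.527 to 0.959. In the same comparison the median was -1.90 over 8 border macrophage genes, -2.85 over 10 meningeal genes and -4.85 over 9 choroid plexus genes. All of these were negative and none passed adjustment. The choroid plexus genes summed to 11.3 to 52.0 CPM in responders, so their signs here too are a description. Of 12 endothelial and pericyte genes 11 were negative and none passed, with a median of -0.53, or -0.23 without FSL vehicle 3. Not every other cell type was lower, since 8 oligodendrocyte genes, all positive, had a median of 0.65. The median over 8 astrocyte genes was 0.095, with 5 positive. With the meningeal covariate the members' median was 0.015, and Aif1, Csf1r, Itgam and Trem2 were at 0.19, 0.11, 0.22 and 0.12, while Cd68 was at -0.13. With the border macrophage covariate the median was -0.067 and Cd68 was at -0.40.

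In non-responders against FSL vehicle, the members ranged from -0.29 ± 0.18 (SE) for Aif1 to 0.23 ± 0.22 for Trem2, with 2 positive, against 48.9% of genes. Their median was -0.15, and 0.004 with 5 positive without FSL vehicle 3. No member passed in edgeR, as was the case for 0% of all genes, or in DESeq2 or limma-voom, and none had an unadjusted p under 0.05, where 4.21% of genes did. Every member's groups overlapped, and those of 7.78% of genes did not. Cd68 was at -0.21 ± 0.52, and its value ran from -0.50 to 0.59 as single libraries were left out.

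Responders and non-responders were also compared directly, a difference of means that leaves out the vehicle libraries. The vehicle libraries still share the fit, its estimate of the spread and the filter. No member passed in edgeR (0% of genes), DESeq2 or limma-voom. Cd68 was lower in responders at -1.41 ± 0.58 (SE), with an unadjusted edgeR p of 0.0321 and an adjusted p of 0.992. It was the 1 member under an unadjusted 0.05, where 1.96% of genes were and lower and 3.14% in either direction. Non-responder 2 and 3 were among the libraries that admitted Cd68 to the test and no responder was, so this difference is a description and no support. Trem2 was at -0.45 ± 0.22 and Tyrobp at -0.21 ± 0.22, while Aif1, Itgam and Cx3cr1 were at 0.11 ± 0.18, 0.15 ± 0.17 and 0.03 ± 0.14. No member separated the responder from the non-responder libraries, as 11.3% of genes did, and 3 of 8 were positive against 50.3% of genes. With both LAC groups averaged against FSL vehicle, no member passed in any of the 3 tools (0% of genes in edgeR), and none was under an unadjusted 0.05 (11.7% of genes) or free of overlap (2.9% of genes). Values ran from -0.92 ± 0.46 for Cd68 to 0.09 for P2ry12, with 2 positive against 50.7% of genes. Without FSL vehicle 3 these were -0.12 for Cd68 and -0.067 for P2ry12, and all 8 members were negative with a median of -0.091. The comparisons with FSL vehicle share its 3 libraries with the line comparison, so a library that is high there moves all of them.

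**Figure D3:**
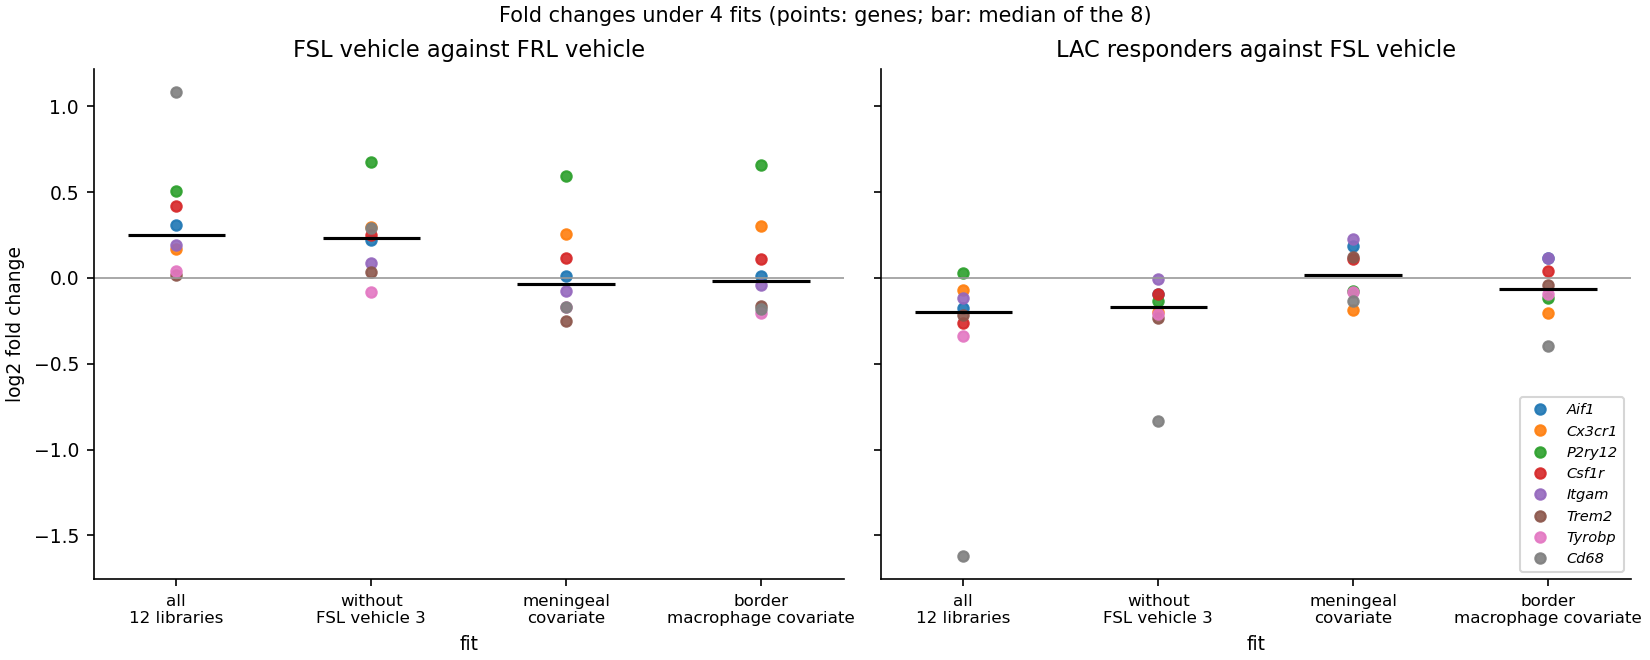
Log2 fold change of the 8 members (points, coloured by gene) with their median (bar) under 4 fits, for FSL vehicle against FRL vehicle on the left and responders against FSL vehicle on the right. On the left, P2ry12 is at 0.59 and 0.66 in the fits with a covariate, while Csf1r moves to 0.12 and 0.11 and Cd68 to values under 0.

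The members did not move as 1 block. Over the 12 libraries, 24 of the 28 pairs of members had a positive Pearson r of their log2 levels, with a median r of 0.34 and a range of -0.31 for P2ry12 with Tyrobp to 0.83 for Csf1r with Cd68. These are descriptions over libraries of 4 groups that share scaling. Csf1r went with Cd68 and Aif1 (r = 0.76), and P2ry12 was nearest to Cx3cr1 (r = 0.51). FSL vehicle 3 held the highest level of 5 members, Aif1, Csf1r, Itgam, Tyrobp and Cd68, and the lowest of Cx3cr1. The count ratio of Csf1r to P2ry12 was 10.4 there and 8.22 in FRL vehicle 3, and 4.60 to 6.78 in the other 10 libraries. Csf1r made up 62.5% of the members' summed CPM in FSL vehicle 3, against 54.0% to 56.6% elsewhere. Mrc1, the border macrophage mannose receptor, was at 123 CPM in that library, against 12.97 to 60.03 CPM in the rest. The part of border macrophages in the Csf1r and Cd68 levels was not tested beyond the fits with a covariate.

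**Figure D4:**
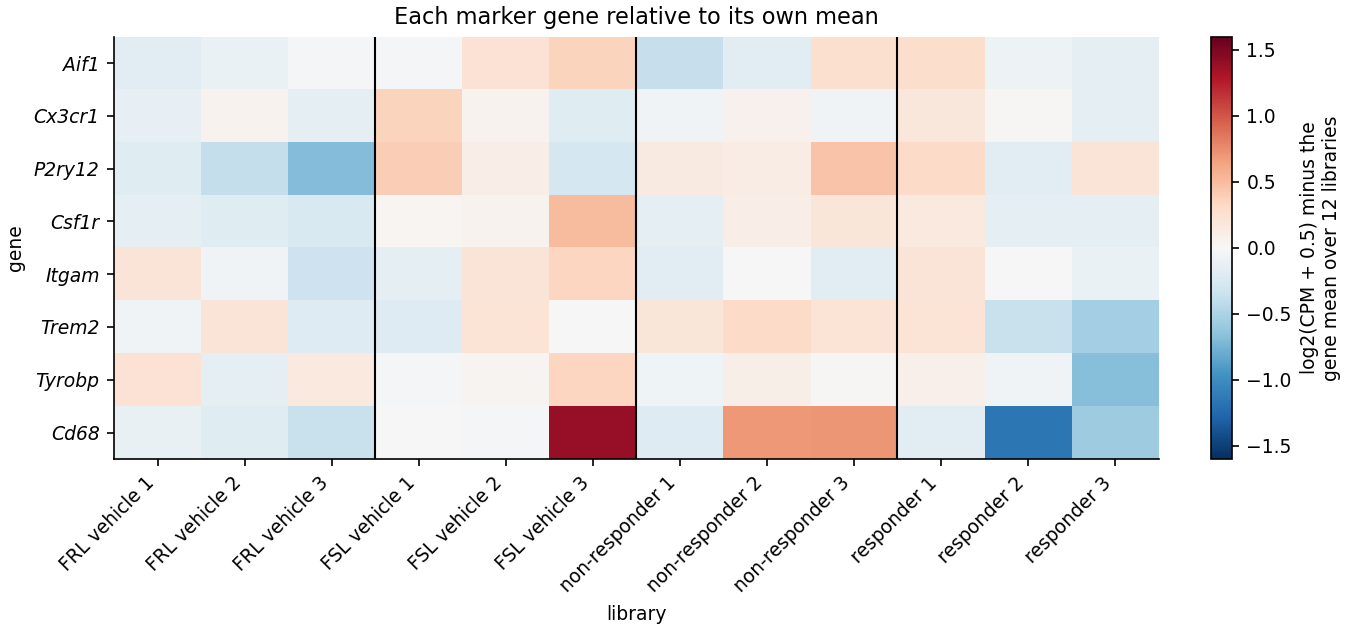
Log2 of CPM plus 0.5 for each member and library minus the mean of that member over the 12 libraries, as colour (red above, blue below), with lines between the groups. In FSL vehicle 3, Cd68 and Csf1r are above their means while P2ry12 and Cx3cr1 are below theirs.

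Summed over the 8 members, the level was 199, 194 and 180 CPM in FRL vehicle, 227, 229 and 274 CPM in vehicle FSL rats, 198, 228 and 243 CPM in non-responders and 244, 195 and 193 CPM in responders. The FSL vehicle libraries lay above the FRL vehicle libraries, and both LAC groups spanned the gap, the responders through responder 1 alone. That library's sum of thalamic neuron genes was 459 CPM, against 73.7 to 191 CPM in the others. Its granule neuron genes summed to 305 CPM, against 286 to 792 CPM in the others. The part of this composition in its marker levels was not tested. Csf1r supplies over 50% of the members' sum, in CPM that also grow with transcript length, so that sum says little about the other 7.

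**Figure D5:**
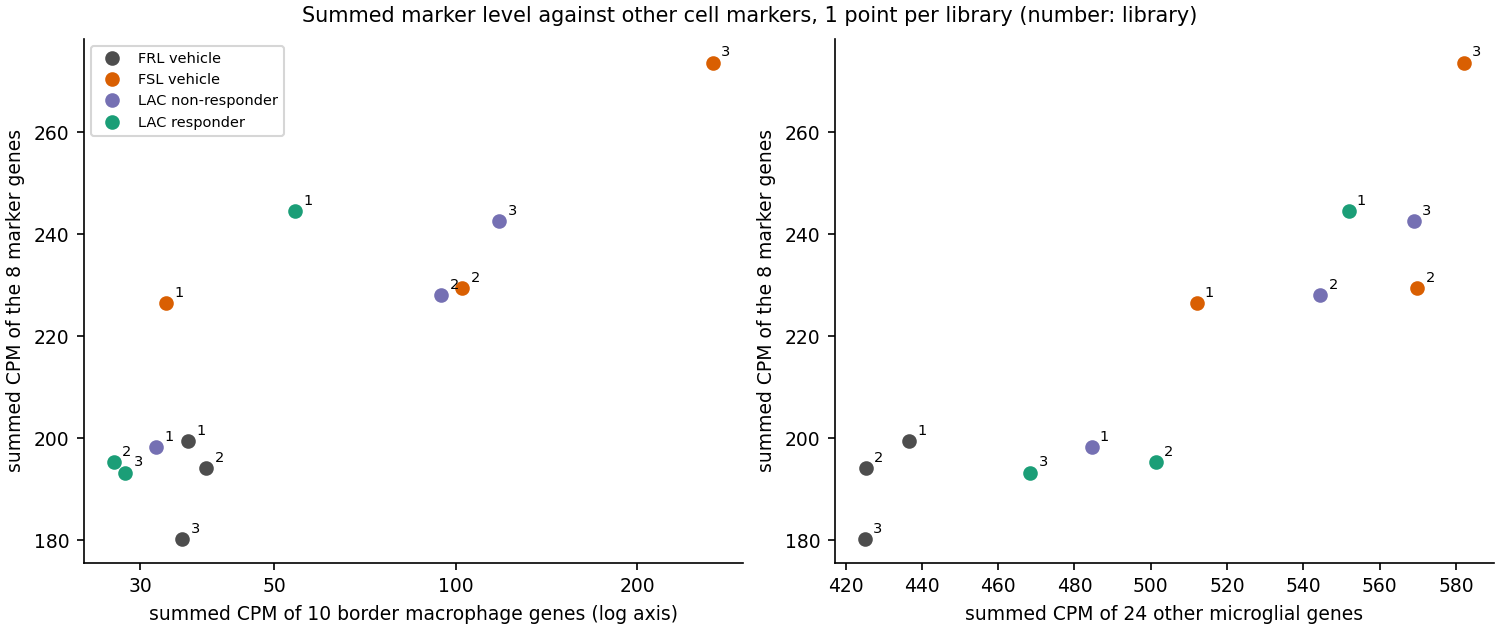
Summed CPM of the 8 members against the summed CPM of 10 border macrophage genes (left, log axis) and of 24 further microglia genes (right, linear axis that does not start at 0), 1 point a library with its number, coloured by group. FSL vehicle 3 is highest on every axis, at 274 CPM for the members and 267 CPM for the border macrophage genes, and FSL vehicle 1, with 227 CPM for the members, has 33.1 CPM for the border macrophage genes.

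Among 24 further microglia genes, 1 passed with all 12 libraries. It did so in FSL vehicle against FRL vehicle, where 0.0681% of all genes passed, and in the mean of the 3 FSL groups, where 0.162% did. Mpeg1, which encodes the pore-forming perforin-2 of macrophages and microglia, was at 24.05, 22.7 and 20.6 CPM in FRL vehicle, 45.6, 45.9 and 56.6 CPM in vehicle FSL rats, 37.6, 37.6 and 45.1 CPM in non-responders, and 46.8, 34.2 and 41.3 CPM in responders. All 9 FSL libraries lay above all FRL libraries, with or without LAC, and 1.96% of all genes were free of overlap in either direction. Mpeg1 was higher by 1.14 ± 0.14 (log2, SE; edgeR adjusted p = 0.0124) in FSL vehicle, and by 0.94 ± 0.12 (edgeR adjusted p = 0.00952) in the mean of the 3 FSL groups. The call held in 9 of 12 fits with 1 library left out and was lost without FRL vehicle 1, 2 or 3, where the edgeR adjusted p was 0.0656, 0.0924 and 0.0737 for FSL vehicle and 0.0652, 0.0933 and 0.0963 for the 3 groups, though the difference stayed between 1.03 and 1.20 and between 0.89 and 1.002. In FSL vehicle against FRL vehicle it was also lost, with edgeR adjusted p of 0.0818, 0.0950 and 0.0708, with the meningeal covariate (0.92), the border macrophage covariate (0.94) and the compared groups alone (1.13). Leaving out 3 libraries high in choroid plexus genes gave 0.0649, and leaving out 2 low in granule neuron genes gave 0.128, and 0.145 for the 3 groups.

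The other microglia genes had a median log2 difference of 0.40 in FSL against FRL vehicle, with 22 of 24 positive, against 48.4% of all genes, and 7 at an unadjusted p under 0.05 and higher, where 9.35% of all genes were. In responders against FSL vehicle the median was -0.32 with 6 positive, against 52% of genes, and in non-responders -0.23 with 7 positive, against 48.9%. Without FSL vehicle 3 these medians were 0.20, -0.098 and 0.014, with 17, 6 and 13 positive. Ctss was at 0.24 ± 0.11 (SE) in FSL against FRL vehicle. Named after its values were seen, Selplg, the ligand of P-selectin, had its 3 lowest levels in FRL vehicle. It was at 12.99, 14.5 and 10.6 CPM there and at 18.5 to 27.9 CPM in all 9 FSL libraries. Such a lack of overlap, in either direction, was found for 1.96% of all genes. The Selplg difference for the 3 groups was 0.78 ± 0.15 (edgeR adjusted p = 0.145). Without FSL vehicle 3 it was 0.83 (edgeR adjusted p = 0.0652). Tmem119, a membrane protein restricted to microglia among brain cells and also named after the fact, was at 11.4 to 11.7 CPM in FRL vehicle, at 19.1, 27.5 and 11.6 CPM in FSL vehicle and at 20.0 to 26.6 CPM in all LAC libraries. The Tmem119 difference for the 3 groups was 0.88 ± 0.21, with an edgeR adjusted p of 0.288. Without FSL vehicle 3 it was 0.97 ± 0.13, with an edgeR adjusted p of 0.0194, in a setting chosen after the data were seen. FSL vehicle 3 was thus within the FRL range for Tmem119, as it was for P2ry12.

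Ligands and partners of the members did not pass either. Of 12 listed genes 11 were tested, and 10 had a positive log2 difference in FSL against FRL vehicle, against 48.4% of all genes. Their median was 0.37, or 0.070 with 8 positive without FSL vehicle 3. Csf1, a ligand of Csf1r, was at 25.3, 19.6 and 17.7 CPM in FRL vehicle, 25.1, 25.01 and 48.5 CPM in vehicle FSL rats, 27.2, 33.7 and 37.9 CPM in non-responders, and 22.2, 28.5 and 25.4 CPM in responders, a line difference of 0.65 ± 0.25 (SE), or 0.26 ± 0.18 without FSL vehicle 3. Il34, the other ligand, gave 0.37 ± 0.26, or 0.18 without that library, and the Cx3cr1 ligand Cx3cl1, at 228 to 351 CPM, was the single negative one at -0.14 ± 0.16. Apoe, a lipid carrier that Trem2 binds, was at 0.36 ± 0.12, and Clu, another such carrier, at 0.47 ± 0.10, with edgeR adjusted p of 0.267 and 0.195, and both were nearly as large without that library, at 0.34 and 0.44. Itgb2, the beta chain paired with Itgam, was at 0.10 ± 0.27, or -0.28 without it, and Syk, the kinase recruited by Tyrobp, at 0.33 ± 0.24, or 0.059 without it. In responders against FSL vehicle all 11 were negative, with a median of -0.36, and in non-responders all 11 were negative with a median of -0.22. Of all genes, 52% and 48.9% were positive in these 2 comparisons. Without FSL vehicle 3, 3 and 6 of the 11 were positive, with medians of -0.10 and 0.049. None passed in these comparisons.

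Genes of phagocytic activation and the lysosome, 13 of 15 listed being tested, had a median of 0.45 in FSL against FRL vehicle. All 13 were positive, against 48.4% of all genes, and none passed the test. Without FSL vehicle 3 the median was 0.20, with 13 positive. Those with the highest CPM were close to equal between the lines, with Ctsb at 0.16 ± 0.08, Ctsd at 0.08 ± 0.13 and Lamp1 at 0.04 ± 0.09 (SE). Of 16 inflammatory genes only Il18, Tgfb1, Nfkbia and Ptgs2 passed the filter, and the cytokines Il1a, Il1b, Tnf and Il6 were too low to test. Tgfb1, Nfkbia and Ptgs2 were at 1.11 ± 0.62, 0.33 ± 0.21 and 0.19 ± 0.23, and at 0.13, 0.082 and 0.30 without FSL vehicle 3. The 8 tested border macrophage genes had a median of 2.02 with 7 at an unadjusted p under 0.05 and higher, where 9.35% of all genes were, and none past adjustment. Among them, Folr2 and Siglec1 were at most at 0.67 and 1.07 CPM in FRL vehicle. That is under the 1.32 CPM of the filter, so FSL vehicle and non-responder libraries admitted them, and the count of 7 is a description. FSL vehicle 2 and 3 were high in their summed level and FSL vehicle 1, at 33.1 CPM, was below every FRL vehicle library. Mrc1 was at 1.82 ± 0.71, F13a1 at 2.26 ± 0.75 and Cd163 at 1.84 ± 0.64. Without FSL vehicle 3 they were at 0.93, 1.11 and 1.03, and the median was 0.93 with 0 of 8 at an unadjusted p under 0.05 by edgeR.

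The genes whose levels over the 12 libraries were nearest to the members' mean profile were Apol9a (r = 0.93, rho = 0.90), Thbs1 (0.92, 0.96), Rcbtb2 (0.92, 0.92), Gnai2 (0.91, 0.94) and Tnfaip8l2 (0.91, 0.92). Taken singly, Csf1r was nearest to Mylk (r = 0.98), Cd68 to Stk10 (r = 0.96), Itgam to Cml5 (r = 0.94) and P2ry12 to Me1 (r = 0.91). Aif1 was nearest to Kcna5 (r = 0.90), Tyrobp to Rps16 (r = 0.88), Trem2 to Tmem209 (r = 0.87) and Cx3cr1 to Htr5a (r = 0.85). No member had another member as its nearest gene. Each of these is the highest value among all tested genes at 1 CPM or more and describes these libraries only.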

How the data were processed

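RNA depleted of ribosomal RNA was sequenced as stranded single reads of 100 bp. The deposited tables hold raw read counts per gene symbol, not normalized. The build rn5 is listed in the submitters' processing notes, with the tools HTSeq 0.6.1, TopHat2 2.0.9, Trimmomatic 0.33, FastQC 0.11.3 and edgeR 3.12.0. The annotation is not given in the sources used here, nor is the strand setting. Here, 5 summary lines per table were left out of totals. They included reads in no gene (47.7% to 52.7%), reads aligned to several places (24.3% to 28.4%) and ambiguous reads (0.0756% to 0.106%).

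Counts in genes were 5.91 to 8.14 M (M for mega) per library, which makes 3 counts 0.367 to 0.511 CPM. All 12 libraries were fitted with 1 mean per group by edgeR 4.0.16 (quasi-likelihood test, two-sided, TMM factors 0.975 to 1.04, default filter on low counts, common biological coefficient of variation 0.178) in R 4.3.3, with Benjamini-Hochberg adjustment over 11750 genes and a threshold of 0.05. The script was tested on simulated counts. The number of rats per library is not given, so p-values measure only the spread between these libraries. Alternatives used DESeq2 1.42.0, limma 3.58.1 (voom), other scalings, no filter, covariates, a replicate block and left-out libraries. Each covariate was the mean over the border macrophage or meningeal genes of log2 of CPM plus 0.5 in a library.

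The members and lists were chosen with earlier results of these data known. Named beside the 8 members were list genes past the threshold, the 3 most abundant of each list shown by gene, the 5 genes most like the members' mean (log2 of CPM plus 0.5, mean CPM of at least 1) and the gene most like each member. Csf1, Il34, Itgb2, Syk, Spi1, Selplg, Tmem119, Clec7a, Folr2 and Siglec1 were named outside this rule. A list gene that the rule also names is not reported here. The labels number libraries 1 to 3 in each group. Deviations of same-numbered libraries correlated at 0.578, 0.203 and 0.425 between FSL vehicle and non-responders, and not at over 0.1 in every pair of any other 2 groups. The labels state no pairing of rats or libraries, and what the same-numbered libraries share was not tested. All 8 symbols were found in the RefSeq gene table. No transcript lengths were used, so sums and the order of genes within a list are in CPM, which also grow with transcript length.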

Additional observations from a re-analysis of the deposited data

How the results depend on the processing

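No member passed the threshold in any of 1103 recomputed values. Of these, 77 changed sign, all of values that had not passed. Of 276 recomputed counts and medians, 7 medians moved by more than 0.161, the spread of library medians, and the cause was not tested beyond the setting itself. The median over the 8 members became -0.0329 with the meningeal covariate and -0.0155 with the border macrophage covariate in FSL vehicle against FRL vehicle, and -0.0332 with the latter in the mean of the 3 FSL groups. It became 0.0148 in responders against FSL vehicle with the meningeal covariate, and 0.0294 (meningeal) and -0.0192 (border macrophage) in the mean of the 2 LAC groups. Without the libraries high in choroid plexus genes it became 0.0329 in non-responders against FSL vehicle. With the replicate block, P2ry12 was at 0.51 (edgeR adjusted p = 0.33) and Csf1r at 0.41 (edgeR adjusted p = 0.321) in FSL vehicle against FRL vehicle. The block changed no call, with all libraries or with FSL vehicle and non-responders fitted alone. Depth limited Cd68 most, at 3 to 33 counts a library. With 3 libraries a group, single libraries such as FSL vehicle 3 moved the values of Cd68 and Csf1r.

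Log2 differences that changed sign are listed here by setting, and their cause was not tested. With scaling to library totals alone, changed signs were P2ry12 -0.00838 in responders against FSL vehicle and Trem2 -0.0307 in the mean of the 2 LAC groups against FSL vehicle. With limma-voom, changed signs were Trem2 -0.0115 in the mean of the 2 LAC groups against FSL vehicle. With a fit of the compared groups only, changed signs were Trem2 -0.00252 in the mean of the 2 LAC groups against FSL vehicle. With the meningeal covariate, changed signs were Itgam -0.0783, Trem2 -0.253, Tyrobp -0.167 and Cd68 -0.17 in FSL vehicle against FRL vehicle and Aif1 0.187, P2ry12 -0.0786, Csf1r 0.108, Itgam 0.225 and Trem2 0.12 in responders against FSL vehicle. The same fit gave Cd68 0.368 in non-responders against FSL vehicle and Cx3cr1 -0.0547 and Csf1r 0.153 in responders against non-responders. The same fit gave Itgam -0.0521, Trem2 -0.0977 and Cd68 -0.0917 in the mean of the 3 FSL groups against FRL vehicle and Aif1 0.00783, Csf1r 0.0316, Itgam 0.0392 and Cd68 0.118 in the mean of the 2 LAC groups against FSL vehicle. With the border macrophage covariate, changed signs were Itgam -0.0428, Trem2 -0.161, Tyrobp -0.206 and Cd68 -0.182 in FSL vehicle against FRL vehicle and Aif1 0.115, P2ry12 -0.119, Csf1r 0.0378 and Itgam 0.118 in responders against FSL vehicle. The same fit gave Cd68 0.368 in non-responders against FSL vehicle and Cx3cr1 -0.0561 and Csf1r 0.0828 in responders against non-responders. The same fit gave Aif1 -0.00811, Itgam -0.0582, Trem2 -0.0749 and Cd68 -0.193 in the mean of the 3 FSL groups against FRL vehicle and P2ry12 -0.00188 in the mean of the 2 LAC groups against FSL vehicle. With FSL vehicle 1, FSL vehicle 3 and non-responder 1 left out, which were high in choroid plexus genes, changed signs were Tyrobp -0.0508 in FSL vehicle against FRL vehicle and Csf1r 0.0901, Tyrobp 0.0197 and Cd68 0.903 in non-responders against FSL vehicle. The same fit gave Aif1 -0.0307 in responders against non-responders and Trem2 -0.193 and Cd68 0.0446 in the mean of the 2 LAC groups against FSL vehicle. With FRL vehicle 2 and responder 1 left out, which were low in granule neuron genes, changed signs were Tyrobp -0.0657 in FSL vehicle against FRL vehicle and P2ry12 -0.075 in responders against FSL vehicle. The same fit gave Aif1 -0.0407 and Cx3cr1 -0.0516 in responders against non-responders and Trem2 -0.133 in the mean of the 2 LAC groups against FSL vehicle.

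Leaving out each library in turn gave these ranges where a sign changed. In FSL vehicle against FRL vehicle, values ran for Trem2 from -0.105 to 0.15 and Tyrobp from -0.083 to 0.137. In responders against FSL vehicle, values ran for Cx3cr1 from -0.201 to 0.0845 and P2ry12 from -0.136 to 0.204. In non-responders against FSL vehicle, values ran for Cx3cr1 from -0.225 to 0.0511, Csf1r from -0.25 to 0.0116, Tyrobp from -0.198 to 0.00641 and Cd68 from -0.4997 to 0.588. In responders against non-responders, values ran for Aif1 from -0.0411 to 0.307 and Cx3cr1 from -0.0524 to 0.102. In the mean of the 3 FSL groups against FRL vehicle, values ran for Itgam from -0.0564 to 0.223 and Trem2 from -0.0683 to 0.15. In the mean of the 2 LAC groups against FSL vehicle, values ran for Cx3cr1 from -0.213 to 0.0678, P2ry12 from -0.0673 to 0.268 and Trem2 from -0.129 to 0.131.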
